A study of Mus musculus with 2 samples.

Results

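S100a4, S100a6, S100a8, S100a9, S100a10 and S100a11 encode 6 members of the S100 family, small proteins that bind calcium through EF hands. They were taken by name from the 32285 features of 2 single-cell libraries and are described across cell classes that were set without any S100 gene. The cells were leukocytes, selected with magnetic beads for CD45, from the hearts of wild type male C57BL/6J mice. The 2 groups were mice with splenectomy and mice with sham surgery. Mice of both groups were 8 weeks old and had the left anterior descending coronary artery occluded for 60 min, with 24 h of reperfusion before the heart was taken. Each group holds 1 library made with a 3′ kit that counts unique molecular identifiers (UMIs). How many mice went into a library is not stated in the labels, and with single libraries the groups could not be tested against each other. Every difference below describes these libraries, and the intervals are exact 95% intervals that cover counting error only.

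S100 proteins act inside the cell as calcium sensors that bind partners such as annexins and myosin, and several are also released. S100A8 and S100A9 pair to form calprotectin, a major protein of the neutrophil cytosol, which acts outside the cell as an alarmin on Toll-like receptor 4 and the receptor RAGE. After myocardial infarction both proteins are known to be released by neutrophils that enter the heart. S100A4, S100A6, S100A10 and S100A11 are made by a wider range of cells.

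The splenectomy library held 5087 barcodes with 48024013 UMIs and the sham library 6210 barcodes with 53512625 UMIs, of which 4805 and 5838 cells were kept, with medians of 7219 UMIs per cell after splenectomy and 4988 after sham surgery. The libraries shared 9 cell barcodes. The CD45 gene Ptprc had a UMI in 79.4% of cells after splenectomy and 79.7% after sham surgery. Clustering gave 21 clusters and 9 named classes. Neutrophil-like cells numbered 1590 after splenectomy and 2271 after sham surgery, monocyte-like cells 1324 and 1082, and macrophage-like cells 691 and 1160. The smaller classes held 50 to 236 cells after splenectomy and 71 to 278 after sham surgery. In both libraries every marker fixed for a named class was higher in that class than in the other named classes together. This held for 10 of 10 in neutrophil-like and 8 of 8 in monocyte-like cells. The clusters were named by these same markers, so this is no separate check of the names. Single clusters passed fewer markers at the limits used for naming, such as 3 for the monocyte-like cluster led by Inhba. Another 568 cells after splenectomy and 547 after sham surgery, in 3 clusters, stayed unnamed. Levels are UMIs of a gene per 1000000 UMIs of a class (CPM). A 3′ library counts 1 tag per transcript whatever its length, so CPM was compared between genes without a length correction.

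All 6 genes lie on chromosome 3 of mm10, in 2 neighbourhoods. S100a4 lies at chr3:90603771-90606045, S100a6 at chr3:90612882-90624181 and S100a8 at chr3:90668978-90670035, all on the plus strand. S100a9 lies at chr3:90692632-90695721 on the minus strand. S100a11 at chr3:93520488-93526287 and S100a10 at chr3:93555080-93564643, both on the plus strand, are the second neighbourhood. RefSeq promoter windows (GRCm38.p6, 250 bases before to 50 bases after the annotated start) were matched for 5 of the 6 genes and searched on both strands for the TATA box letters TATAAA, the AP-1 motif letters TGANTCA, the C/EBP motif letters TTNCNNAA and the PU.1 motif letters GAGGAAGT. Of 32851 windows in the table, 13.6% hold the first, 7.81% the second, 40.7% the third and 3.20% the fourth. The windows of S100a8, S100a9, S100a4 and S100a11 are shown because they belong to genes with different distributions over the cell classes: the pair S100a8 and S100a9, high in neutrophils, then S100a4, low in neutrophils, then S100a11, high in neutrophils and monocytes. Capitals mark motif matches.
S100a8 promoter, chr3:90668821-90669120, plus strand: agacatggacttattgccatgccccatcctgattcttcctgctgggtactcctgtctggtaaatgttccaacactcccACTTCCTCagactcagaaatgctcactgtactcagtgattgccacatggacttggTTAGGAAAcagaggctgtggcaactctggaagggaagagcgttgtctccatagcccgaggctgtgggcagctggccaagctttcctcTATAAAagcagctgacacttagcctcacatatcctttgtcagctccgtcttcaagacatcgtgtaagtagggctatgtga
S100a9 promoter, chr3:90695672-90695971, minus strand: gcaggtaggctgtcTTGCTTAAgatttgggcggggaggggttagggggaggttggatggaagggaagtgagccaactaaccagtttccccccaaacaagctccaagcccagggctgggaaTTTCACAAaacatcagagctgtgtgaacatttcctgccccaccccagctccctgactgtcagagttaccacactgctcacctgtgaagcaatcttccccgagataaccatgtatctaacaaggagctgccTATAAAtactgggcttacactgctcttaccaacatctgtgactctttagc
S100a4 promoter, chr3:90603520-90603819, plus strand: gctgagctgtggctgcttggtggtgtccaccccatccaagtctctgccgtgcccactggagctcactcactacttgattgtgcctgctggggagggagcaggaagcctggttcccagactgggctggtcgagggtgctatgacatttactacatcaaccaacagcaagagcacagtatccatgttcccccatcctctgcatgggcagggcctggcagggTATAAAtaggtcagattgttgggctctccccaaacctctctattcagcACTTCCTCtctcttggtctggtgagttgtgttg
S100a11 promoter, chr3:93520246-93520545, plus strand: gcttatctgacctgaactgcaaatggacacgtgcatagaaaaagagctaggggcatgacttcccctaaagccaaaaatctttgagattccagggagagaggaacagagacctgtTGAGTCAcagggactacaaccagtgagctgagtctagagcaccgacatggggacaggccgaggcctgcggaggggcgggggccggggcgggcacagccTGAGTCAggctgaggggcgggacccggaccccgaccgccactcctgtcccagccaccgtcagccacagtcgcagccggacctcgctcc
Counted from the annotated start, the S100a8 window holds a TATA box at -30, 1 C/EBP match at -117 and 1 PU.1 match at -172. The S100a9 window holds 2 C/EBP matches, at -236 and -130. It holds the TATA box letters at position 1, beginning on the annotated start and not before it. The S100a4 window holds a TATA box at -31 and a PU.1 match at position 18. The S100a11 window holds 2 AP-1 matches, at -136 and -38, and no TATA box, and the S100a6 window holds none of the 4 motifs. A match is a run of letters and not a measured binding site.

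The 6 genes fell into 3 patterns over the cell classes, and both libraries showed the same patterns. S100a8 and S100a9 were far higher in neutrophil-like cells than anywhere else. S100a6 and S100a11 were high in neutrophil-like and in monocyte-like cells. S100a4 and S100a10 were close to absent from neutrophil-like cells and high in monocyte-like, macrophage-like and conventional dendritic cell-like cells.

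**Figure D1:**
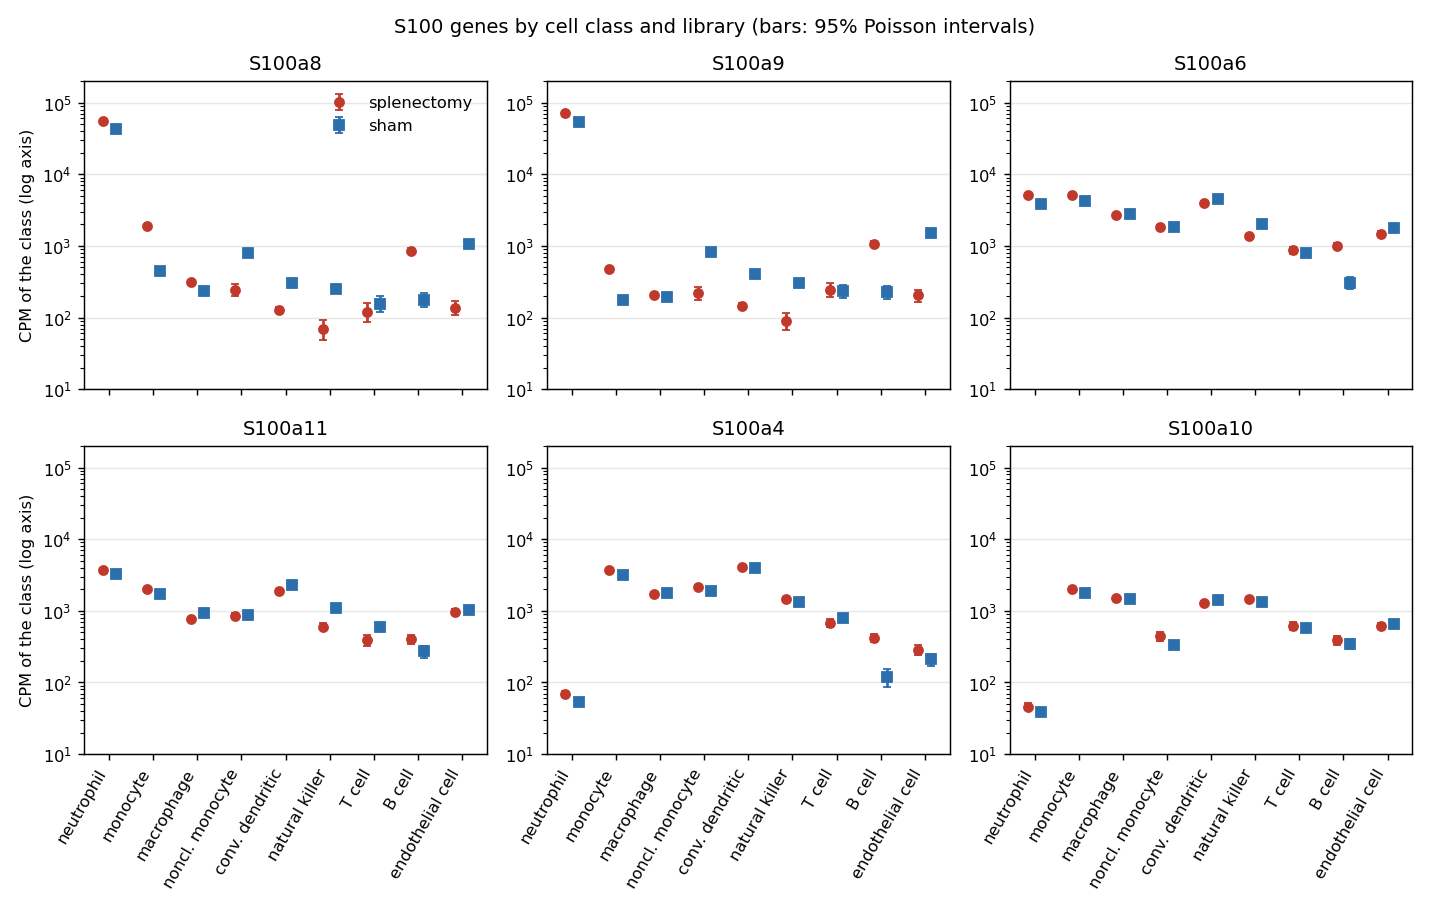
CPM of each S100 gene (log axis) in 9 cell classes for the splenectomy library (circles) and the sham library (squares), with exact 95% Poisson intervals that are mostly smaller than the symbols. S100a8 and S100a9 peak in neutrophil-like cells at 43460 to 71114 CPM, where S100a4 and S100a10 lie at 38.4 to 68.2 CPM.

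S100a8, the smaller subunit of calprotectin, stood at 55832 CPM in neutrophil-like cells after splenectomy and 43460 after sham surgery. S100a9, its partner, stood at 71114 CPM after splenectomy and 54053 after sham surgery. Together they made up 12.7% of all UMIs of neutrophil-like cells after splenectomy and 9.75% after sham surgery. The median neutrophil-like cell carried 163 S100a8 UMIs after splenectomy, with quartiles of 66 and 322, and 114 after sham surgery, with quartiles of 46.5 and 217.5. Over all barcodes of a library, S100a9 ranked as gene number 7 by UMIs after splenectomy and number 8 after sham surgery, and S100a8 as number 9 in both. Of the S100a8 UMIs in kept cells, neutrophil-like cells held 89.6% after splenectomy and 96.2% after sham surgery. For S100a9 these shares were 97.2% after splenectomy and 97.8% after sham surgery.

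S100a6, or calcyclin, was as high in monocyte-like as in neutrophil-like cells after splenectomy, at 5177 and 5161 CPM, and the 2 intervals overlapped. After sham surgery it was highest in conventional dendritic cell-like cells, at 4538 CPM, followed by monocyte-like cells at 4234 and neutrophil-like cells at 3816. B cell-like and T cell-like cells had the least S100a6 in both libraries, at 997 and 872 CPM after splenectomy and 305 and 809 CPM after sham surgery. S100a11, a partner of annexin A1, led in neutrophil-like cells, at 3758 CPM after splenectomy and 3264 after sham surgery. Monocyte-like cells followed after splenectomy, at 1999 CPM, and conventional dendritic cell-like cells after sham surgery, at 2299 CPM. Neutrophil-like cells hold less RNA, with medians of 3745 UMIs after splenectomy and 3319 after sham surgery, so that per cell they carried a mean of 14.9 S100a11 UMIs after splenectomy and 11.6 after sham surgery, and monocyte-like cells 27.5 and 22.8.

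S100a4, which binds non-muscle myosin and is often used as a fibroblast marker, was highest in conventional dendritic cell-like cells, at 4102 CPM after splenectomy and 3999 after sham surgery. Monocyte-like cells followed at 3710 CPM after splenectomy and 3209 after sham surgery. Neutrophil-like cells had 68.2 CPM after splenectomy and 53.4 after sham surgery, the lowest level of the 9 classes in both libraries. That is a mean of 0.271 UMIs per cell after splenectomy and 0.190 after sham surgery, against 51.1 and 43.3 per monocyte-like cell. S100a10, also called p11, forms a complex with annexin A2 and was also lowest in neutrophil-like cells in both libraries. Its highest level lay in monocyte-like and not in conventional dendritic cell-like cells. It stood at 2023 CPM in monocyte-like cells after splenectomy and 1771 after sham surgery, and at 45.9 and 38.4 CPM in neutrophil-like cells. Nonclassical monocyte-like cells also set the 2 genes apart, with S100a4 at 2180 CPM after splenectomy and 1908 after sham surgery, and S100a10 at 441 and 333 CPM. Natural killer cell-like and macrophage-like cells had overlapping intervals of S100a10 after splenectomy, at 1448 and 1511 CPM. There 5 natural killer cell-like cells held 46.4% of its UMIs. Without the 5 cells of each class with most S100a10, the levels were 1119 CPM in natural killer cell-like and 1479 in macrophage-like cells. These 5 are a larger share of the 50 natural killer cell-like than of the 691 macrophage-like cells. The 2 levels without them are therefore not compared.

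Likeness was measured by Pearson's r of log2(CPM + 10) over 18 points, the 9 classes in 2 libraries. The points share libraries and free RNA, so r is a description. Among the 6 genes S100a8 and S100a9 were most alike, at r = 0.964, followed by S100a6 and S100a11 at 0.910 and S100a4 and S100a10 at 0.821. S100a9 and S100a10 were most opposed, at -0.859. Of 2571 other genes with a mean of at least 50 CPM, those most like S100a9 were Hdc, which makes histamine, at 0.987, the chemokine receptor gene Cxcr2 at 0.982 and G0s2 at 0.973. For S100a8 they were Hdc at 0.958, Wfdc21 at 0.951 and Hcar2 at 0.942. For S100a4 they were Ccr2, the receptor that guides monocytes out of the marrow, at 0.955, Ciao2a at 0.944 and Ass1 at 0.942. For S100a10 they were Nme1 at 0.983, Cox7b at 0.973 and Ppib at 0.970. Basp1 at 0.928, Cox17 at 0.922 and Clec4n at 0.917 were most like S100a6, and Cox17 at 0.922, Gsn at 0.899 and Cd80 at 0.895 most like S100a11. Hdc, Cxcr2 and G0s2 are among the markers that named neutrophil-like cells, and Ccr2 among those that named monocyte-like cells. Their high r is therefore partly set by the naming of the classes.

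Neutrophil RNA that leaks into droplets can place S100a8 and S100a9 in cells that do not make them, and 3 measures were set beside their levels. The first is the summed level of 7 neutrophil genes that are not S100 genes (Cxcr2, Il1r2, Hdc, Ly6g, Retnlg, G0s2 and Stfa2l1), as a share of the level in neutrophil-like cells of the same library. The second is the ratio of S100a8 to S100a9, set beside the ratio in neutrophil-like cells. The third is the level in cells without a single UMI of the 7 genes. Neutrophil-like cells had 0.785 S100a8 UMIs per S100a9 UMI after splenectomy, with an interval of 0.782 to 0.789, and 0.804 after sham surgery, with an interval of 0.8005 to 0.808. Their clusters differed, from 0.697 (led by Ifit1) to 0.815 (led by G0s2) after splenectomy. After sham surgery they ran from 0.742 (led by Ifit1) to 0.842 (led by Hcar2). The neutrophil ratio named below is that of the whole class, and the intervals said to lie below it reach into this range of clusters.

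The lymphoid and endothelial classes carried fewer S100a8 than S100a9 UMIs, as neutrophil-like cells did. B cell-like cells had 0.799 S100a8 UMIs per S100a9 UMI after splenectomy (0.700 to 0.912) and 0.777 after sham surgery (0.564 to 1.07). Endothelial cell-like cells had 0.673 after splenectomy (0.494 to 0.912) and 0.715 after sham surgery (0.641 to 0.798), the second below the neutrophil ratio. T cell-like cells had 0.488 after splenectomy (0.329 to 0.714), below the neutrophil ratio, and 0.674 after sham surgery (0.475 to 0.952), an interval that includes it. Natural killer cell-like cells had 0.769 after splenectomy (0.496 to 1.18) and 0.819 after sham surgery (0.696 to 0.963). Conventional dendritic cell-like cells had 0.892 after splenectomy (0.780 to 1.02) and 0.734 after sham surgery (0.678 to 0.794), the second below the neutrophil ratio. Nonclassical monocyte-like cells lay above it, at 1.11 after splenectomy (0.828 to 1.49) and 0.981 after sham surgery (0.869 to 1.11). Monocyte-like cells lay far above, at 4.03 S100a8 UMIs per S100a9 UMI after splenectomy (3.94 to 4.13) and 2.52 after sham surgery (2.41 to 2.64). Macrophage-like cells had 1.49 after splenectomy (1.41 to 1.57) and 1.249 after sham surgery (1.19 to 1.31). Within that class, the cluster led by Fabp5, Ccl12 and Pf4 had 1.96 after splenectomy and 1.495 after sham surgery, while the Lyve1 and Folr2 cluster had 0.787 and 0.819. The intervals of the Lyve1 cluster, 0.713 to 0.868 after splenectomy and 0.754 to 0.890 after sham surgery, include the neutrophil ratio.

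**Figure D2:**
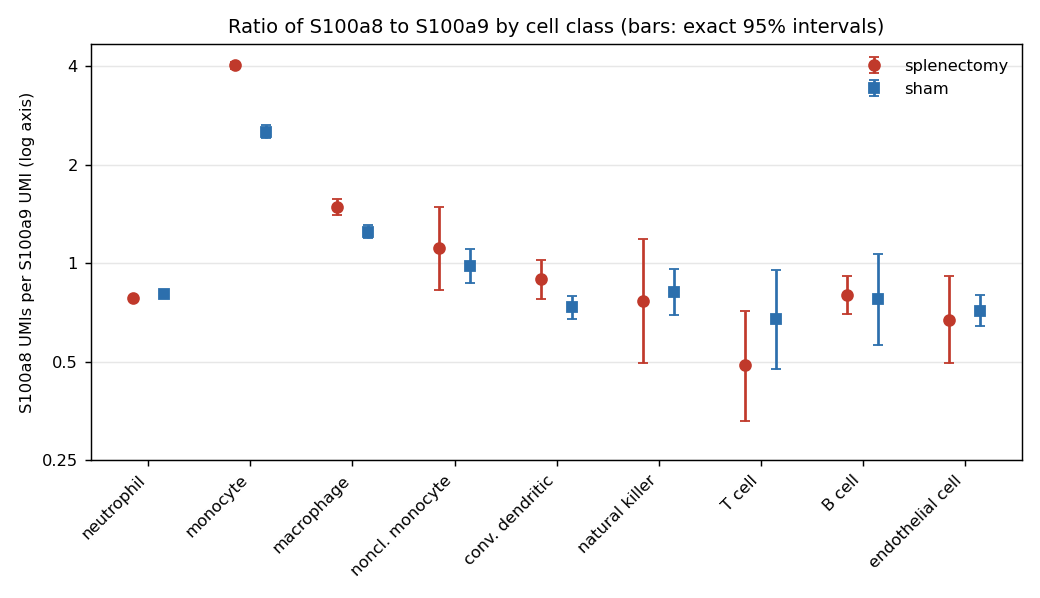
S100a8 UMIs per S100a9 UMI (log axis) in 9 cell classes for the splenectomy library (circles) and the sham library (squares), with exact 95% intervals. Monocyte-like cells lie at 4.03 and 2.52, neutrophil-like cells at 0.785 and 0.804, and B cell-like cells at 0.799 and 0.777.

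In neutrophil-like cells all 6 genes were higher in the splenectomy library, each by less than 1.5-fold. S100a6 differed most, with 5161 CPM after splenectomy and 3816 after sham surgery, a log2 ratio of 0.44 (0.41 to 0.46). The log2 ratio was 0.36 for S100a8 and 0.40 for S100a9. It was 0.35 for S100a4, 0.26 for S100a10 and 0.20 for S100a11. With no doublets removed it was -0.01 for both S100a4 and S100a10, and with classes from marker UMIs per cell 0.08 for S100a4 and 0.0067 for S100a10. With the same mix of clusters in both libraries it was -0.0022 for S100a11. None of the 6 reached 1.5-fold, a size that 10.1% of 6072 genes passed in this class (50 or more counts in 1 of the libraries), 3.19% higher and 6.9% lower after splenectomy. Their median log2 ratio was 0.36, against -0.08 over all 6072 genes. Over all barcodes S100a4 made up 0.242% of UMIs after splenectomy and 0.202% after sham surgery, and S100a10 0.144% and 0.125%. Whether free RNA of other cells gives the few S100a4 and S100a10 UMIs of neutrophil-like cells was not tested.

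The difference in S100a8 and S100a9 was smaller between cells of the same cluster. The clusters that held most neutrophil-like cells were led by Hcar2 and by Retnlg after splenectomy, and by Hcar2 and by G0s2 after sham surgery. The Retnlg cluster was high in both libraries, at 175220 CPM of S100a8 plus S100a9 after splenectomy and 188527 after sham surgery, a log2 ratio of -0.11. The G0s2 cluster had a log2 ratio of 0.10, the Ifit1 cluster 0.28 and the Hcar2 cluster 0.08. With the same mix of clusters in both libraries the log2 ratio of the sum was 0.05, and over the whole class it was 0.38. Because Retnlg itself differed, at 2633 CPM in neutrophil-like cells after splenectomy and 882 after sham surgery, the sizes of these clusters are not read as a difference in cells. S100a4, though low, stood at 96.6 CPM in the Hcar2 cluster after splenectomy and 58.8 after sham surgery. A share of free RNA in these UMIs was not tested. In the G0s2 cluster S100a4 stood at 54.8 CPM after splenectomy and 55.3 after sham surgery, and in the Retnlg and Ifit1 clusters the interval of its log2 ratio included 0. S100a6 was higher after splenectomy in 4 of the 4 neutrophil-like clusters with at least 50 cells in both libraries, by log2 ratios of 0.14 to 0.39.

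The pair also followed the depth of a cell. Neutrophil-like cells of 501 to 2867 UMIs had 34609 CPM of S100a8 after splenectomy and 28246 after sham surgery, and cells of 4280 to 16320 UMIs had 69605 and 53208. Across 4 ranges of depth the log2 ratio of S100a8 was 0.29, 0.07, 0.12 and 0.39, from the shallowest to the deepest. Whether more RNA per cell or another mix of cells goes with these levels cannot be told apart in 2 libraries.

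**Figure D3:**
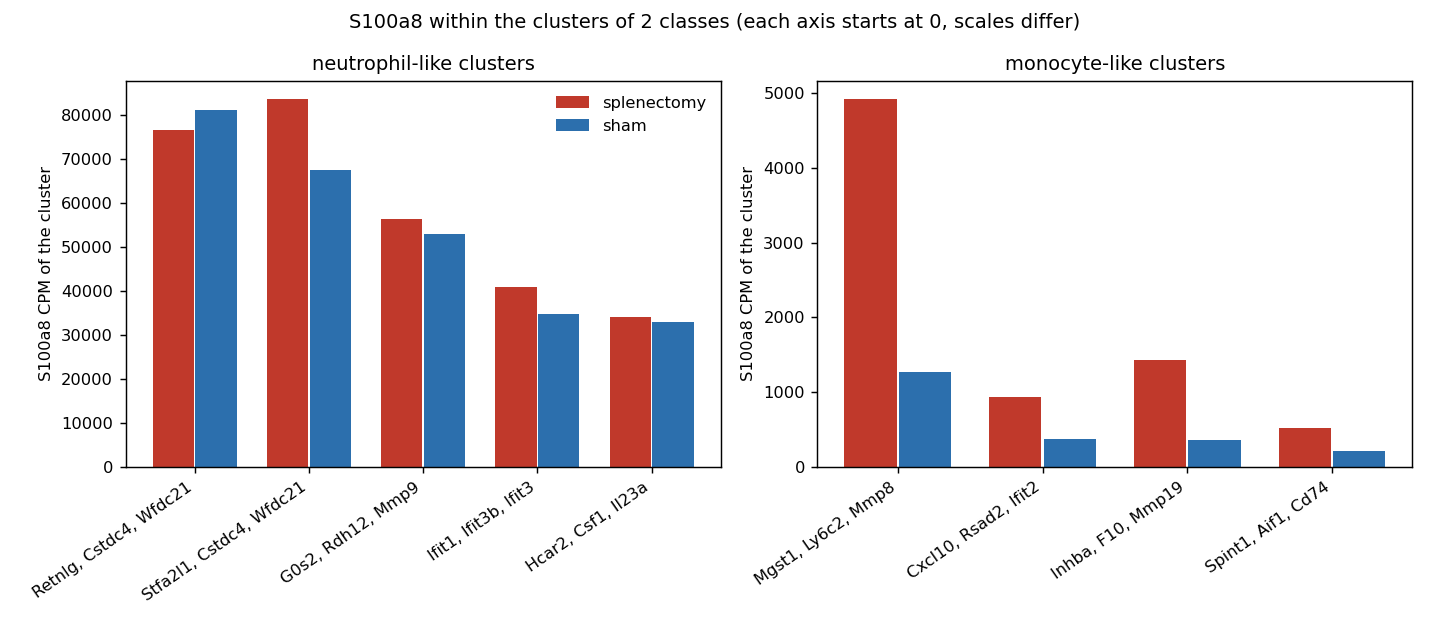
S100a8 CPM within the clusters of the neutrophil-like and monocyte-like classes, named by their leading genes, for the splenectomy library (left bar) and the sham library (right bar). Bars are close to equal height in the Retnlg, G0s2 and Hcar2 clusters of neutrophil-like cells, while in the Mgst1 cluster of monocyte-like cells they stand at 4918 and 1266 CPM.

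In monocyte-like cells S100a8 and S100a9 were set apart from the other members. S100a8 stood at 1893 CPM after splenectomy and 446 after sham surgery, a log2 ratio of 2.08 (2.05 to 2.12). S100a9 stood at 469 CPM after splenectomy and 177 after sham surgery, a log2 ratio of 1.41 (1.34 to 1.47). These 2 of the 6 genes passed 1.5-fold in the upward direction and none in the downward one. Of 8746 genes with at least 50 counts, 2.25% passed it upward, 3.44% downward and 5.69% in either direction. S100a4, S100a6, S100a10 and S100a11 had log2 ratios of 0.21, 0.29, 0.19 and 0.24, at 1691 to 5177 CPM.

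Most monocyte-like cells carried a few UMIs of S100a8 and a minority carried many. The median was 4 UMIs per cell after splenectomy and 2 after sham surgery, and the upper quartile 18 and 4. More than 10 UMIs were found in 32.7% of these cells after splenectomy and 12.1% after sham surgery, and more than 50 in 13.1% and 2.03%. The tenth of cells with most S100a8 held 68.0% of its UMIs after splenectomy and 67.9% after sham surgery. Median depths were alike, at 12934.5 UMIs per monocyte-like cell after splenectomy and 12871.5 after sham surgery.

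**Figure D4:**
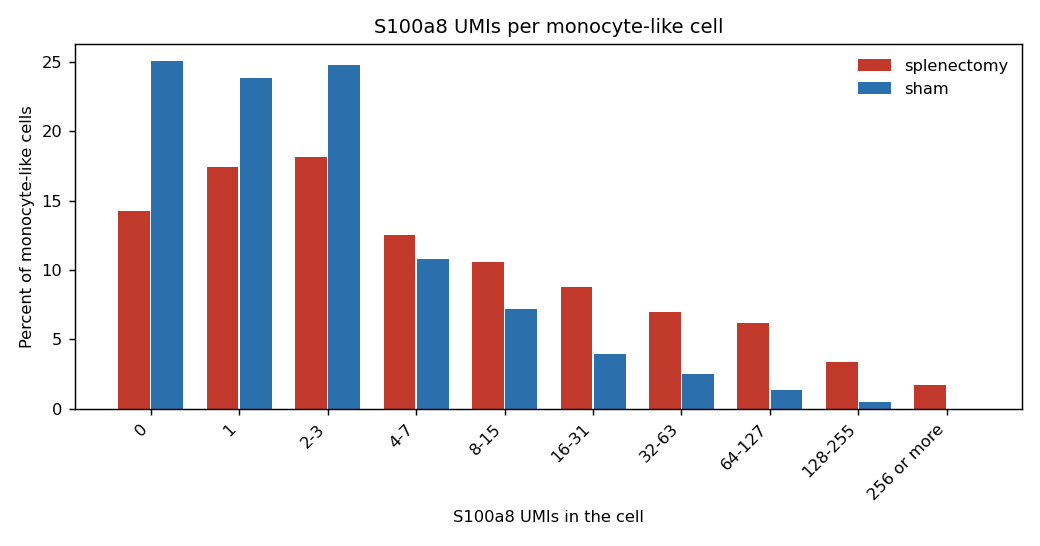
Percent of monocyte-like cells by the number of S100a8 UMIs in the cell, for the splenectomy library (left bar, 1324 cells) and the sham library (right bar, 1082 cells). The splenectomy library has fewer cells with 0 to 3 UMIs and more cells in every range from 4 UMIs upward.

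The 4 monocyte-like clusters all had more S100a8 after splenectomy. The cluster led by Mgst1, Ly6c2 and Mmp8 was highest, at 4918 CPM after splenectomy and 1266 after sham surgery, a log2 ratio of 1.96. The Inhba, F10 and Mmp19 cluster had 1435 CPM after splenectomy and 366 after sham surgery, a log2 ratio of 1.97. The Spint1, Aif1 and Cd74 cluster had 520 CPM after splenectomy and 211 after sham surgery, a log2 ratio of 1.30. The Cxcl10 and Rsad2 cluster, with 31 cells after splenectomy and 58 after sham surgery, had 939 and 376 CPM. S100a9 followed in 3 of the 4, and in the Cxcl10 cluster it was lower after splenectomy, at 180 CPM, against 281 after sham surgery. The Inhba cluster held most monocyte-like cells after splenectomy and the Spint1 cluster most after sham surgery.

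The ratio of the 2 genes was closest between libraries where S100a8 was highest. The Mgst1 cluster had 4.42 S100a8 UMIs per S100a9 UMI after splenectomy (4.27 to 4.58) and 4.21 after sham surgery (3.87 to 4.59). In the Spint1 cluster the ratio was 2.18 after splenectomy (2.01 to 2.36) and 1.21 after sham surgery (1.11 to 1.32). The 7 neutrophil genes in monocyte-like cells reached 0.955% of their level in neutrophil-like cells after splenectomy and 0.895% after sham surgery. S100a8 reached 3.39% of its neutrophil level after splenectomy and 1.03% after sham surgery, and S100a9 0.660% and 0.327%. Among the single neutrophil genes, Cxcr2 reached 0.421% after splenectomy and 0.305% after sham surgery, G0s2 0.330% and 0.363%, and Il1r2 3.07% and 2.94%. In the 491 monocyte-like cells after splenectomy and 422 after sham surgery without a UMI of these 7 genes, S100a8 had 1241 CPM after splenectomy and 362 after sham surgery, with a log2 ratio of 1.78 (1.71 to 1.85). S100a9 in these cells stood at 208 CPM after splenectomy and 125 after sham surgery, a log2 ratio of 0.74 (0.61 to 0.88).

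Thinned to 2000 UMIs, 50.9% of 1312 monocyte-like cells after splenectomy (48.2 to 53.7) and 31.9% of 1068 after sham surgery (29.1 to 34.8) held an S100a8 UMI. Before thinning the shares were 85.7% after splenectomy and 74.95% after sham surgery. Thinned B cell-like cells, which should lack the gene, held one in 26.0% of 100 cells after splenectomy (17.7 to 35.7) and 26.3% of 99 after sham surgery (17.9 to 36.1). S100a9 was found in 28.0% of thinned monocyte-like cells after splenectomy and 21.9% after sham surgery, and in 41.0% and 27.3% of B cell-like cells. S100a8 or S100a9 was found in 62.0% of thinned monocyte-like cells after splenectomy (59.3 to 64.6) and 44.9% after sham surgery (41.8 to 47.9). In B cell-like cells these shares were 52.0% after splenectomy (41.8 to 62.1) and 43.4% after sham surgery (33.5 to 53.8). Thinning left out 12 monocyte-like and 11 B cell-like cells after splenectomy, and 14 and 11 after sham surgery. B cell-like cells are shallower, with medians of 3689 UMIs after splenectomy and 3489 after sham surgery. Because the classes differ this much in depth before thinning, no level of free RNA in monocyte-like cells is read from these shares.

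In macrophage-like cells none of the 6 genes passed 1.5-fold, as 4.73% of 9170 genes did, 2.61% higher and 2.13% lower. S100a8 stood at 310 CPM after splenectomy and 239 after sham surgery, a log2 ratio of 0.38 (0.31 to 0.44). S100a11 stood at 763 CPM after splenectomy and 918 after sham surgery, a log2 ratio of -0.27 (-0.30 to -0.23). It was not lower by this much within the large clusters, with -0.04 (-0.08 to 0.00064) in the Fabp5 cluster and 0.25 (0.13 to 0.37) in the Lyve1 cluster. Its sign held in 12 of 15 alternatives, and at resolution 0.5 the log2 ratio was 0.21. S100a4 at 1702 and 1767 CPM, S100a6 at 2725 and 2767 CPM and S100a10 at 1511 and 1455 CPM, each after splenectomy and after sham surgery, differed by log2 ratios of -0.05 to 0.05. With clusters drawn at resolution 0.5 the log2 ratio of S100a8 in this class was 1.51, and S100a8 passed 1.5-fold in 5 of 15 alternatives.

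The 2 large macrophage-like clusters went different ways. In the Fabp5, Ccl12 and Pf4 cluster S100a8 stood at 408 CPM after splenectomy and 242 after sham surgery, a log2 ratio of 0.76 (0.68 to 0.83). In the Lyve1 and Folr2 cluster it stood at 169 CPM after splenectomy and 231 after sham surgery, a log2 ratio of -0.45 (-0.59 to -0.31). That cluster had more S100a4 after splenectomy, at 931 CPM, against 615 after sham surgery, and more S100a6, at 1369 CPM, against 910. The 7 neutrophil genes stood at 83.8 CPM after splenectomy and 82.0 after sham surgery in the Lyve1 cluster, and at 49.99 and 63.0 CPM in the Fabp5 cluster. Each cluster is 1 sum per library, so whether the clusters differ in their response was not tested. In macrophage-like cells without a UMI of the 7 genes S100a8 stood at 201 CPM after splenectomy and 140 after sham surgery, a log2 ratio of 0.52 (0.41 to 0.64). S100a9 stood at 102 CPM after splenectomy and 104 after sham surgery in these cells.

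In 5 of the 6 small classes S100a8 and S100a9 passed 1.5-fold, downward in 4 and upward in 1. In T cell-like cells they did not, with log2 ratios of -0.39 (-0.995 to 0.21) for S100a8 and 0.08 (-0.37 to 0.53) for S100a9. They were lower after splenectomy in nonclassical monocyte-like cells, where S100a8 stood at 245 CPM after splenectomy and 798 after sham surgery. The same held in conventional dendritic cell-like cells, at 128.2 and 302 CPM, and in natural killer cell-like cells, at 68.6 and 247 CPM. Of the 6 genes, 2 were lower by 1.5-fold in nonclassical monocyte-like cells, where 7.89% of 1938 measured genes were lower, 2.53% higher and 10.4% either. In conventional dendritic cell-like cells 2 were lower, where 3.44% of 5575 genes were lower, 2.69% higher and 6.13% either. In natural killer cell-like cells 3 were lower, S100a11 among them at 600 CPM after splenectomy and 1112 after sham surgery. There 6.71% of 2905 genes were lower, 7.23% higher and 13.9% either. In endothelial cell-like cells 2 were lower, where 9.36% of 2020 genes were lower, 5.94% higher and 15.3% either. In T cell-like cells S100a11 was lower, at 386 CPM after splenectomy and 593 after sham surgery, where 8.17% of 942 genes were lower, 5.31% higher and 13.5% either. The 5 T cell-like cells with most S100a11 held 39.3% of it after splenectomy and 67.1% after sham surgery. Without them its log2 ratio was 0.16 (-0.32 to 0.63), so the direction did not hold. In B cell-like cells S100a4, S100a6, S100a8 and S100a9, 4 of the 6 genes, were higher, where 6.47% of 1236 genes were higher, 1.7% lower and 8.17% either.

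In each of these classes other than T cell-like cells, 5 cells held over 50% of the S100a8 UMIs in at least 1 library. In B cell-like cells the 5 cells with most S100a8 held 81.3% of it after splenectomy, and 28.8% after sham surgery. In endothelial cell-like cells they held 55.4% after splenectomy and 86.4% after sham surgery, and in nonclassical monocyte-like cells 34.7% and 76.1%. Without these 5 cells of each library the log2 ratio of S100a8 was 0.36 (-0.17 to 0.90) in B cell-like cells and -0.21 (-0.66 to 0.23) in nonclassical monocyte-like cells. In B cell-like cells the log2 ratio of S100a4 without the 5 cells with most of it was -0.94 (-2.40 to 0.41), at 19.2 CPM after splenectomy and 36.8 after sham surgery, so the direction turned. That of S100a6, treated likewise, was 0.66 (0.04 to 1.30), against 1.71 with all cells. For S100a8 it was -1.25 (-1.89 to -0.65) in endothelial cell-like, -0.39 (-0.62 to -0.17) in conventional dendritic cell-like and -0.93 (-1.62 to -0.30) in natural killer cell-like cells. The 5 cells are a larger share after splenectomy in natural killer cell-like cells, with 50 and 119 cells, and in nonclassical monocyte-like cells, with 59 and 93. The log2 ratios without them are thus partly set by class size there. The 7 neutrophil genes moved in the same direction as S100a8. They stood at 304 CPM in B cell-like cells after splenectomy and 87.0 after sham surgery, and at 66.7 and 472 CPM in endothelial cell-like cells. In nonclassical monocyte-like cells they stood at 141 CPM after splenectomy and 463 after sham surgery, and in natural killer cell-like cells at 51.4 and 220 CPM. In conventional dendritic cell-like cells they stood at 242 CPM after splenectomy and 333 after sham surgery. That is a log2 ratio of -0.46, against -1.24 for S100a8. Neutrophil doublets or attached neutrophil RNA as the source of these UMIs was not tested.

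In cells of the small classes without a UMI of the 7 genes, S100a8 differed less between the libraries. Natural killer cell-like cells among them still had log2 ratios of -1.03 (-1.77 to -0.33) for S100a8 and -0.99 (-1.63 to -0.39) for S100a9. Some other members differed more there, with log2 ratios of 0.95 for S100a4 in natural killer cell-like cells and 0.85 for S100a6 in T cell-like cells, against 0.12 and 0.11 over all cells of these classes. Over all natural killer cell-like cells, 5 cells held 71.5% of S100a4 after splenectomy and 49.7% after sham surgery. Without these cells its log2 ratio was -0.48 (-0.69 to -0.26). The cells left out were 5 of 50 after splenectomy and 5 of 119 after sham surgery. This log2 ratio is thus partly set by the size of the class in each library, and its direction is not read. Over all T cell-like cells, 5 cells held 67.2% of S100a6 after splenectomy and 73.9% after sham surgery. Without them its log2 ratio was 0.39 (-0.05 to 0.83). In T cell-like cells without a UMI of the 7 genes, the log2 ratio of S100a11 turned to 0.26 (-0.15 to 0.68). Among B cell-like cells, 88 after splenectomy and 81 after sham surgery, S100a8 had 174 CPM after splenectomy and 161 after sham surgery, with a log2 ratio of 0.11 (-0.47 to 0.69). Among conventional dendritic cell-like cells, 60 after splenectomy and 72 after sham surgery, it stood at 97.5 and 87.2 CPM. Among endothelial cell-like cells it stood at 105 CPM after splenectomy and 281 after sham surgery, a log2 ratio of -1.41 (-2.05 to -0.81), from 31 and 87 UMIs. Il1r2 alone reached 7.58% of its neutrophil level in conventional dendritic cell-like cells after splenectomy and 9.73% after sham surgery, while Cxcr2 reached 0.196% and 0.396%. Monocyte-like cells likewise had more of Il1r2 than of Cxcr2, and whether these cells make Il1r2 themselves was not tested. In conventional dendritic cell-like cells Il1r2 gave 685 of the 783 UMIs of the 7 genes after splenectomy and 860 of 1194 after sham surgery. In monocyte-like cells it gave 1567 of 2695 and 1057 of 1848. Which cells of these 2 classes lack a UMI of the 7 genes is thus largely set by Il1r2.

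Other genes of the pathway were taken as lists. Of 9 alarmin receptor genes and their adaptors, 7 were measured in monocyte-like cells with at least 50 counts, and 1 was higher by 1.5-fold, as 2.25% of all measured genes were. This was Cd33, an inhibitory receptor that binds S100A9 in human cells, at 28.9 CPM after splenectomy and 12.2 after sham surgery. In neutrophil-like cells, where 3.19% of all measured genes were higher, 1 of 6 was, Tlr4, the receptor of calprotectin, at 138 CPM after splenectomy and 89.7 after sham surgery. In macrophage-like cells, where 2.61% of all measured genes were higher, 1 of 7 was, again Cd33, at 25.5 CPM after splenectomy and 16.9 after sham surgery. None was lower in these 3 classes. Cd14, a co-receptor of Tlr4, was abundant in all 3, at 7325 CPM after splenectomy and 6372 after sham surgery in neutrophil-like cells, with a log2 ratio of 0.20. Ager, the gene of RAGE, had 8 UMIs after splenectomy and 16 after sham surgery in all neutrophil-like cells, too few to compare.

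Of 10 genes whose proteins bind S100 proteins or the oxidase they assist, all were measured in the 3 large classes. Ahnak, a scaffold bound by the S100a10 and annexin A2 complex, was higher in neutrophil-like cells, at 44.1 CPM after splenectomy and 26.8 after sham surgery. It was the single gene of this list past 1.5-fold in the 3 classes, where 10.1% of all measured genes were past it in either direction in neutrophil-like, 5.69% in monocyte-like and 4.73% in macrophage-like cells. Anxa2, the partner of S100a10, stood at 1072 CPM in monocyte-like cells after splenectomy and 935 after sham surgery, and at 590 and 525 CPM in neutrophil-like cells, where S100a10 itself was close to absent. Anxa1 stood at 331 CPM in neutrophil-like cells after splenectomy and 281 after sham surgery. Myh9, the myosin that S100a4 binds, stood at 678 CPM in neutrophil-like cells after splenectomy and 654 after sham surgery.

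Of 7 regulators of myeloid genes, 1 of 7 measured in monocyte-like cells was higher, beside 2.25% of all 8746 genes. This was Cebpe, a factor of late granulocyte maturation, at 22.7 CPM after splenectomy and 14.8 after sham surgery. None of 6 measured passed in neutrophil-like cells and none of 7 in macrophage-like cells. Cebpb, a known activator of S100a8 and S100a9, had log2 ratios of -0.10 in neutrophil-like and 0.01 in monocyte-like cells. Spi1, the gene of PU.1, had log2 ratios of 0.02 and 0.04. Of 10 further S100 genes, 1 was measured in neutrophil-like and 2 in monocyte-like and macrophage-like cells, and none of them passed 1.5-fold. S100a13 stood at 247 CPM in monocyte-like cells after splenectomy and 220 after sham surgery, and S100a1 at 43.3 and 31.7 CPM.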

How the data were processed

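The deposited matrices hold counts of UMIs per gene and barcode. Per the file headers and the submitters' processing notes they were made with Cell Ranger 5.0.0 (the notes also name STAR) on mm10. The annotation they counted on is not stated there. Positions come from GENCODE vM21 on mm10. Cells with fewer than 200 genes or over 20% mitochondrial UMIs were left out. Doublets were scored with Scrublet (expected rate 0.05), and the top-scoring cells were left out, at a rate of 8 in 1000 for every 1000 cells that passed, which was 200 cells (4.00%) after splenectomy and 302 (4.92%) after sham surgery. Scrublet's own threshold called 102 and 150.

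Both libraries were clustered together without any S100 gene (10000 UMIs per cell, log, 2000 variable genes, 30 components, 15 neighbours, Leiden resolution 1.0, seed 7). A cluster took the class with most markers found in 25% of its cells at 1.5-fold, with at least 3 needed. It stayed unnamed with fewer markers or where more markers of another class stood among its 10 top genes. Going by the number of markers in place of a mean score was chosen after seeing a first clustering. Counts were summed per class, and each ratio divides splenectomy by sham surgery, with exact conditional Poisson intervals. Levels have Poisson and shares binomial (Clopper-Pearson) intervals at 95%, all for counting error only. With 1 library per group no gene has a p-value. Genes were called past 1.5-fold, given 50 or more counts in 1 of the libraries. The rule for named genes takes the 6 members, genes of the lists and, per member, the 3 genes of highest r over class levels, leaving out S100, mitochondrial, ribosomal and predicted genes. Members and lists were chosen with earlier results of these data known. Scripts were tested on simulated data. The tools were scanpy 1.11.5, igraph 0.11.9 and matplotlib 3.10.9, with scipy 1.17.1, numpy 2.4.6 and pandas 2.3.3 under python 3.11.15.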

Additional observations from a re-analysis of the deposited data

Results flagged for a closer look

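S100a8 and S100a9 went opposite ways in 2 of the small classes, and the difference between the classes was not tested. In B cell-like cells the log2 ratio was 2.28 for S100a8 and 2.24 for S100a9, at 858 and 1073 CPM after splenectomy and 176 and 227 CPM after sham surgery. In endothelial cell-like cells it was -2.96 for S100a8 and -2.87 for S100a9, at 137 and 204 CPM after splenectomy and 1067 and 1493 CPM after sham surgery. In both classes the 7 neutrophil genes moved the same way, with log2 ratios of 1.81 in B cell-like and -2.82 in endothelial cell-like cells. Without the 5 cells with most UMIs of the gene, S100a9 had a log2 ratio of 0.36 (-0.08 to 0.82) in B cell-like cells and -0.32 (-0.79 to 0.15) in endothelial cell-like cells.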

How the results depend on the processing

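The log2 ratio of S100a8 plus S100a9 kept its sign in the 12 alternatives run for neutrophil-like cells, the 14 for monocyte-like and the 14 for macrophage-like cells that gave a value. In neutrophil-like cells it was 0.38, and 0.37 with the libraries clustered apart, 0.36 with classes from marker UMIs per cell, 0.44 with no doublets removed, 0.43 with totals that leave out the pair and mitochondrial genes, 0.43 with median-of-ratios scaling, 0.35 with cells thinned to 2000 UMIs and 0.045 with the same mix of clusters. In monocyte-like cells it was 1.92, and 1.80 at resolution 0.5, 1.82 at resolution 2.0, 1.73 with the libraries clustered apart, 1.54 with classes from marker UMIs, 2.0 with at least 500 genes per cell, 1.77 with at most 10% mitochondrial UMIs, 1.87 with no doublets removed, 1.86 after thinning and 1.76 with the same mix of clusters. Alternatives chosen after seeing the data gave 2.72 with free RNA subtracted by 5 neutrophil genes, 1.58 in cells without a UMI of the 7 genes and 1.97 without the 5 cells with most UMIs. In macrophage-like cells it was 0.27, and 1.16 at resolution 0.5, 0.33 at resolution 2.0, 0.55 with the libraries clustered apart, 0.41 with classes from marker UMIs, 0.18 with at least 500 genes, 0.73 with no doublets removed, 0.42 after thinning, 0.33 with the same mix and 0.12 without the 5 cells. The cause of these shifts was not tested. The number of members past 1.5-fold in macrophage-like cells was 0, and 1 at resolution 0.5, with the libraries clustered apart, with classes from marker UMIs and with no doublets removed. In neutrophil-like cells it was 0 and in monocyte-like cells 2 in every alternative that gave a value for all 6 genes. Subtraction by the 7 neutrophil genes, or by 5 of them, left no S100a9 in at least 1 library of monocyte-like and macrophage-like cells and gives no value there. Classes from marker UMIs per cell matched the clusters in 65.2% of cells, with 13.4% near the limit between classes. Cells with S100a8 or S100a9 after thinning to 1000 UMIs were 49.2% of monocyte-like cells after splenectomy and 31.5% after sham surgery, and 38.5% and 32.4% of B cell-like cells. At 4000 UMIs they were 77.0% and 66.3% of monocyte-like cells and, in B cell-like cells, 60.5% after splenectomy and 58.1% after sham surgery. No paired analysis was possible because each group holds 1 library, and no replicate could be left out.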

Other observations

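An unnamed cluster led by Ccl24, Serpinb2 and Il6, with 174 cells after splenectomy and 50 after sham surgery, carried S100a8 at 447 CPM after splenectomy and 188 after sham surgery. It had 3.61 S100a8 UMIs per S100a9 UMI after splenectomy (3.21 to 4.08) and 1.53 after sham surgery (1.16 to 2.01), while its neutrophil genes stood at 47.5 and 40.5 CPM. S100a4 stood at 2413 CPM after splenectomy and 2069 after sham surgery there, and S100a10 at 1797 and 1626 CPM.

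S100a4 was held by few B cell-like and T cell-like cells. Of natural killer cell-like cells, 60.0% after splenectomy and 63.0% after sham surgery held an S100a4 UMI. In B cell-like cells the 5 cells with most S100a4 held 96.0% of its UMIs after splenectomy and 71.4% after sham surgery. In T cell-like cells these shares were 67.1% after splenectomy and 77.6% after sham surgery, and 25.7% and 23.9% of the cells held an S100a4 UMI.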
